A study of Mus musculus with 4 samples.

Results

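KDM5C peaks at noncoding RNA promoters are the 498 peaks of the wild-type (WT) list whose midpoint lay within 1 kb of the transcription start site (TSS) of a gene typed as lincRNA, antisense or processed_transcript in the GENCODE M1 annotation of mm9. They were 7.20% (95% interval 6.60 to 7.84%) of the 6916 WT peaks on chromosomes 1 to 19 and X. A protein-coding TSS also lay within 1 kb of the midpoint of 349 of these peaks, and 149 peaks (29.9%, 95% interval 25.9 to 34.2%) had none. A lincRNA gene makes a long RNA from between protein-coding genes, an antisense RNA runs against another gene, and processed_transcript is the annotation's label for other spliced or processed RNAs with no reading frame. The annotation held 0 genes of gene type antisense, so that class was read from transcript type, and its genes were counted within the lincRNA and processed_transcript genes.

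KDM5C, also named SMCX, is an X-linked enzyme that strips methyl groups from lysine 4 of histone H3, a mark of active promoters and enhancers. Many promoters sit in CpG islands, stretches where the CpG dinucleotide, depleted from most of the mammalian genome, has been kept and is mostly unmethylated. Long noncoding RNAs are often transcribed from such islands too, in many cases head to head with a protein-coding gene, so that a peak between such a pair cannot be assigned to either gene by position alone.

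The peaks came from ChIP-Seq with an anti-KDM5C antibody in mouse epiblast-like cells (EpiLCs), sampled at day 2. The labels give the strain as C57BL/6J, whereas the methods describe the mutant strains as made on 129/Sv or, for the floxed Kdm5c allele, a mixed background. All 4 samples were male cells whose only X chromosome carries a Tsix deletion (XΔTsixY), either with intact Kdm5c (WT) or with Kdm5c deleted (KO), and each genotype had 1 immunoprecipitated and 1 input sample. The labels describe conversion to EpiLCs, whereas the methods place day 2 after that stage, and for this ChIP the methods give replicate WT samples, combined into 1 list, and a single KO sample. With 1 peak list per genotype there was no replicate error and no test was made, and the intervals given are exact Clopper-Pearson 95% intervals that cover counting error only and take peaks or genes as independent. The peak lists held no read counts, and the paper's reporting form gives only a minimum number of reads per sample. The exact depth behind a peak is therefore unknown. Of 6933 WT and 47 KO peaks deposited, 6916 and 44 lay on chromosomes 1 to 19 and X. The score of a peak is the −log10 of its q-value multiplied by 10 and cut to a whole number, and its fold enrichment is that of immunoprecipitate over input, both as given by MACS2, the peak caller.

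The sequences under 7 of these peaks show the kinds of promoter in the set, each as 160 bp around the summit, on the plus strand of mm9 (NCBIM37), with the CpG dinucleotides in capitals. Gm17242 (chr12:81858687-81858846) carried the highest score without a protein-coding TSS. Dleu2 (chr14:62267935-62268094) and Mir17hg (chr14:115441543-115441702) are hosts of microRNAs, and Enox (chrX:100689098-100689257), better known as Jpx, has been proposed to activate Xist. The paper cites joint deletions of Enox and other loci that left Xist induction in place, but that may lower Xist expression from the mutant X itself. It proposes that Enox is no diffusible, dose-dependent activator. The peaks at 3110083C13Rik (chr14:58618078-58618237) and Tug1 (chr11:3549325-3549484) lay at divergent gene pairs, with Efha1 and Morc2a as protein-coding partners. C920006O11Rik (chr9:78024226-78024385) had the highest score among the CpG-poor peaks without a protein-coding TSS.
Gm17242: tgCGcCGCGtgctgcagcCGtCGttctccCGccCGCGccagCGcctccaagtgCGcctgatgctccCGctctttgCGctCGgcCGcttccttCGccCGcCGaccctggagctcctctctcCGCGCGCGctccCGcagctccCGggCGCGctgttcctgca
Dleu2: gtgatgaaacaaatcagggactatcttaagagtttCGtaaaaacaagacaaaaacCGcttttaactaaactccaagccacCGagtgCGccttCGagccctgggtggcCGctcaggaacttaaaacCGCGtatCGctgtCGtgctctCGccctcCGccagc
Mir17hg: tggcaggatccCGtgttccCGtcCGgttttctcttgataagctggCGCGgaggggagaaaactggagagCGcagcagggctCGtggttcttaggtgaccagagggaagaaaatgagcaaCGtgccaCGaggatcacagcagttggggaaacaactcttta
Enox: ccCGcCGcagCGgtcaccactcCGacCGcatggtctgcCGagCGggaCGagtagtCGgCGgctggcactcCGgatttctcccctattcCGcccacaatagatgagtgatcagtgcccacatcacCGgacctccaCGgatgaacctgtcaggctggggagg
3110083C13Rik: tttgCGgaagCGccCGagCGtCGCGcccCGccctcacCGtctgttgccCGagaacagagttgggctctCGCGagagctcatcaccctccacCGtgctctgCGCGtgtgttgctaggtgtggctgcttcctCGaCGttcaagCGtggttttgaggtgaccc
Tug1: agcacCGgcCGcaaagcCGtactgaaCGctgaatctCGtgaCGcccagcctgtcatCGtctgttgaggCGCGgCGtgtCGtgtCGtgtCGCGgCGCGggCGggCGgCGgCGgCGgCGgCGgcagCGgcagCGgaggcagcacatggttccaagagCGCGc
C920006O11Rik: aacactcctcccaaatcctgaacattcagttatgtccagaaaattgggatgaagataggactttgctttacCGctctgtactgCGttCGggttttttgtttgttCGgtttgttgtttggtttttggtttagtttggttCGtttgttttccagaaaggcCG
The window of Tug1 held 27 CpG dinucleotides, that of Gm17242 25 and that of 3110083C13Rik 17. The windows of Enox, Dleu2 and Mir17hg held 14, 12 and 9, and the window of C920006O11Rik, with a GC content of 41.2%, held 6. The ratio of observed to expected CpG was nevertheless 0.902 in the C920006O11Rik window. It was 0.784 for Mir17hg, 0.851 for Enox and from 1.05 to 1.33 for the other windows. A peak counted as CpG-rich only if its whole sequence had a ratio of at least 0.6 and a GC content of at least 50%.

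A smaller share of noncoding than of protein-coding genes had a peak. A gene counted as bound if the midpoint of a WT peak fell 1 kb or less from any of its TSSs, and 482 of 3845 noncoding genes were bound (12.5%, 95% interval 11.5 to 13.6%), compared with 16.1% of all 37252 annotated genes and 24% (23.4 to 24.5%) of 22350 protein-coding genes. Of the lincRNA genes 322 of 1273 were bound (25.3%, 22.9 to 27.8%), an interval that overlaps that of protein-coding genes. The processed_transcript genes were bound at 160 of 2572 (6.22%, 5.32 to 7.22%). Genes with an antisense transcript were bound at 121 of 1387 (8.72%, 7.29 to 10.3%). Small RNA genes and pseudogenes lay lower still, with 2.60% of microRNA, 1.55% of snoRNA and 0.703% of snRNA genes and 1.52% of pseudogenes bound.

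The types also differed in how many of their promoters were CpG-rich, here a ratio of observed to expected CpG of at least 0.6 and a GC content of at least 50% over 500 bp on either side of the gene start. Promoters were CpG-rich in 40.9% (38.2 to 43.7%) of lincRNA genes, 11.2% (10.0 to 12.5%) of processed_transcript genes, 15.0% (13.2 to 17%) of genes with an antisense transcript and 44.2% (43.5 to 44.9%) of protein-coding genes. A protein-coding TSS lay within 1 kb of a TSS in 49.4% of lincRNA genes, 19.3% of processed_transcript genes and 29.7% of genes with an antisense transcript.

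Among CpG-rich promoters, noncoding genes were bound at nearly the same share whether or not a protein-coding TSS was near. Of 178 CpG-rich noncoding genes without a protein-coding TSS within 1 kb, 77 were bound (43.3%, 35.9 to 50.9%), and of 632 with one, 273 were bound (43.2%, 39.3 to 47.2%). Protein-coding genes with CpG-rich promoters and no noncoding TSS within 1 kb were bound at 4015 of 9144 (43.9%, 42.9 to 44.9%). These shares had overlapping intervals, and the width of the first leaves room for a difference of several percentage points. By type, 46.4% (42.1 to 50.8%) of CpG-rich lincRNA genes and 37.4% (31.8 to 43.2%) of CpG-rich processed_transcript genes were bound, with intervals that met between 42.1 and 43.2%. For CpG-rich genes with an antisense transcript the share was 7 of 26 (26.9%, 11.6 to 47.8%) without and 76 of 182 (41.8%, 34.5 to 49.3%) with a protein-coding TSS. The order was the opposite for CpG-rich processed_transcript genes without an antisense transcript. They were bound at 21 of 50 (42%, 28.2 to 56.8%) without and 12 of 44 (27.3%, 15.0 to 42.8%) with one. In both comparisons the intervals overlapped.

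At CpG-poor promoters the shares separated. Of 2541 CpG-poor noncoding genes without a protein-coding TSS, 65 were bound (2.56%, 1.98 to 3.25%), whereas 67 of 494 with one were bound (13.6%, 10.7 to 16.9%), and CpG-poor protein-coding genes with no noncoding TSS nearby lay between, at 7.71% (7.24 to 8.20%). No pair of these intervals overlapped. CpG-poor lincRNA genes without a protein-coding TSS were bound at 41 of 542 (7.56%, 5.48 to 10.1%), close to CpG-poor protein-coding genes, and CpG-poor processed_transcript genes without one at 24 of 1999 (1.20%, 0.771 to 1.78%). A CpG-poor gene start did not mean a CpG-poor peak: 89 of the 132 bound CpG-poor noncoding genes (67.4%, 58.7 to 75.3%) had a peak whose own sequence was CpG-rich. Without a protein-coding TSS this held for 36 of 65 genes (55.4%, 42.5 to 67.7%) and with one for 53 of 67 (79.1%, 67.4 to 88.1%). Mir17hg was one of them, with a CpG ratio of 0.333 around its annotated start and of 0.637 within its peak, whose summit lay at −478 bp from that start (negative is upstream).

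**Figure D1:**
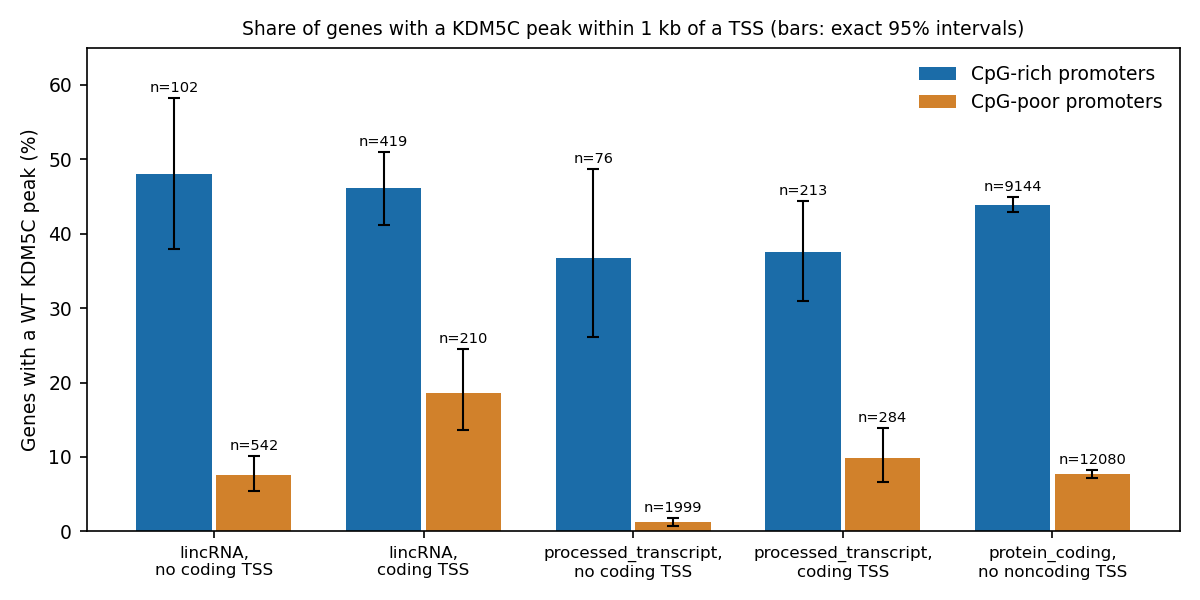
Share of genes with a WT KDM5C peak midpoint within 1 kb of a TSS (y axis, %), by gene type and nearby TSS (x axis), for CpG-rich and CpG-poor promoters; error bars are exact 95% intervals and n is the number of genes. Across the 5 plotted groups, lincRNA and processed_transcript genes without and with a protein-coding TSS and protein-coding genes without a noncoding TSS, CpG-rich promoters lay between 36.8 and 48.0% and CpG-poor promoters between 1.20 and 18.6%.

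The bound share rose with CpG content in every class. For noncoding genes without a protein-coding TSS it was 1 of 1016 (0.0984%, 0.00249 to 0.547%) at a CpG ratio under 0.2, 1.70% from 0.2 to 0.4, 12.2% from 0.4 to 0.6, 32.5% from 0.6 to 0.8 and 28 of 46 (60.9%, 45.4 to 74.9%) at 0.8 and over. With a protein-coding TSS the shares were 1.16, 9.24, 20.5, 36.3 and 52.0% (45.9 to 58.0%) over the same bins. Protein-coding genes without a noncoding TSS gave 1.52, 5.61, 18.5, 38.4 and 49.4% (47.9 to 50.9%). From a ratio of 0.6 upward the intervals of the noncoding classes overlapped that of protein-coding genes, and below 0.6 the share of noncoding genes standing alone was the lowest of the classes.

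**Figure D2:**
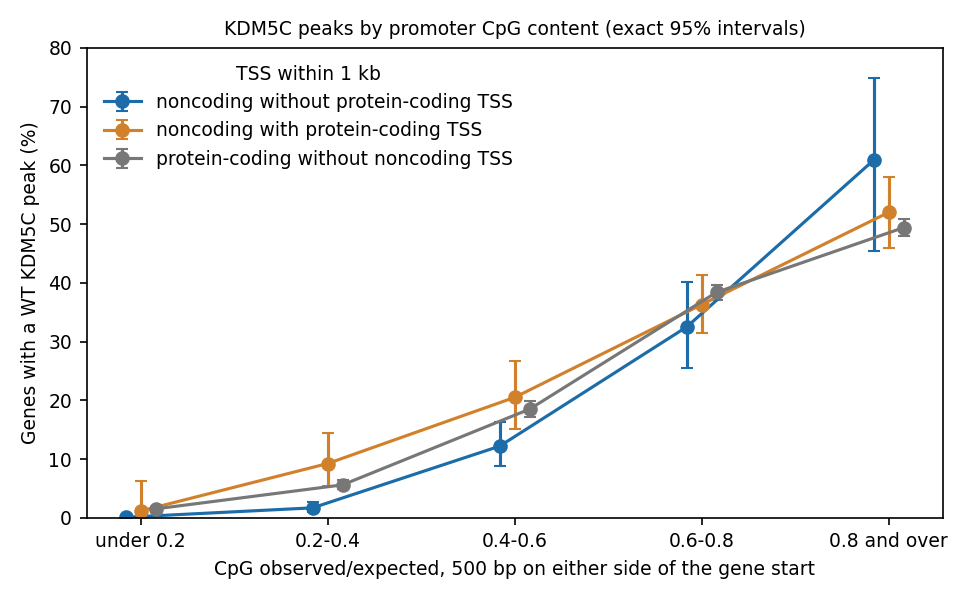
Share of genes bound by KDM5C (y axis, %) against the observed-to-expected CpG ratio of 500 bp on either side of the gene start (x axis, in bins), for noncoding genes without and with a protein-coding TSS within 1 kb and for protein-coding genes without a noncoding one; error bars are exact 95% intervals. Every line rose from left to right, and the last point of noncoding genes standing alone, 60.9%, rests on 46 genes.

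Scores and widths at noncoding promoters lay close to those at protein-coding promoters. The median score was 82 (quartiles 58 and 192) for the 149 peaks without a protein-coding TSS, 83 (48 and 173) for the 349 with one and 87 (50 and 171) for the 4715 peaks at protein-coding TSSs only. Median fold enrichment was 3.90, 3.67 and 3.74, and median width 536, 555 and 539 bp, in the same order. The sequence of the peak itself was CpG-rich in 112 of 149 peaks without a protein-coding TSS (75.2%, 67.4 to 81.9%), 323 of 349 with one (92.6%, 89.3 to 95.1%) and 90.6% (89.7 to 91.4%) of those at protein-coding TSSs only, compared with 53.7% (51.2 to 56.1%) of the 1638 peaks with no TSS within 1 kb.

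Median scores differed more between CpG-rich and CpG-poor peaks than between peaks without and with a protein-coding TSS. The 112 CpG-rich peaks without a protein-coding TSS had a median score of 109.5 (quartiles 61.2 and 252.5), and 18 of them (16.1%, 9.81 to 24.2%) scored 320 or above, which is the cut-off for the highest 10% of WT scores. The 323 CpG-rich peaks with one had a median of 89, with 32 at that level or above (9.91%, 6.88 to 13.7%), and the CpG-rich peaks at protein-coding TSSs only had a median of 90, with 11.7% (10.8 to 12.7%) at or above it. The CpG-poor peaks scored from 19 to 205 with a median of 68 without (n = 37) and from 14 to 236 with a median of 54.5 with a protein-coding TSS (n = 26). In both groups 0 reached that level, with upper limits of 9.49 and 13.2%. Of CpG-poor peaks at protein-coding TSSs only, 20 of 444 did (4.50%, 2.77 to 6.87%). Of those with no TSS within 1 kb, 19 of 759 did (2.50%, 1.51 to 3.88%). Both shares lay under the upper limits of the 2 small groups, so the 0 counts set no ceiling.

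**Figure D3:**
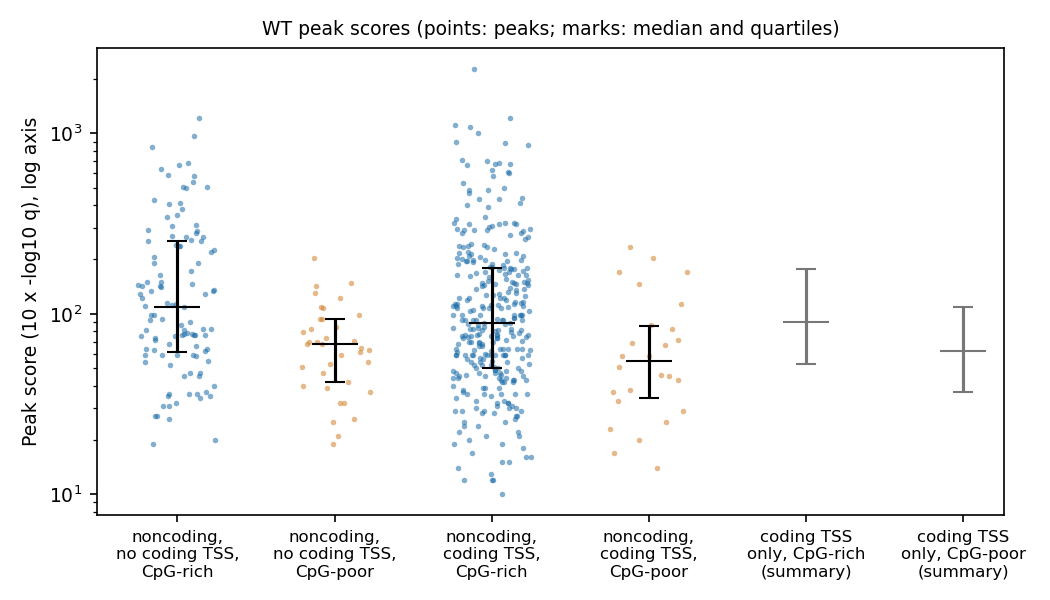
Scores of the WT peaks at noncoding promoters (y axis, 10 times −log10 of q, log axis), split by a protein-coding TSS within 1 kb and by the CpG content of the peak (x axis); each point is a peak, the marks are medians and quartiles, and peaks at protein-coding TSSs only are shown by their marks alone. The medians were 109.5 and 68 without and 89 and 54.5 with a protein-coding TSS, for CpG-rich and CpG-poor peaks, and the ranges of all groups overlapped.

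Summits gathered close to the TSS. Without a protein-coding TSS the median summit lay 51 bp downstream of the noncoding TSS (quartiles −139 and 204 bp, negative upstream), and 124 of 149 summits (83.2%, 76.2 to 88.8%) were within 500 bp of it. Where both kinds of TSS were present, summits spread more widely around the noncoding TSS (median −10 bp, quartiles −296 and 245 bp) than around the protein-coding TSS (median 49 bp, quartiles −161 and 196 bp). The protein-coding TSS was the nearer one for 212 of 349 summits (60.7%, 55.4 to 65.9%) and the noncoding TSS for 136. Membership required a midpoint within 1 kb, which bounds these distances. Each TSS was the annotated start of its class nearest to the peak midpoint. The number of annotated starts per gene was not allowed for, and its part in these counts was not tested.

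**Figure D4:**
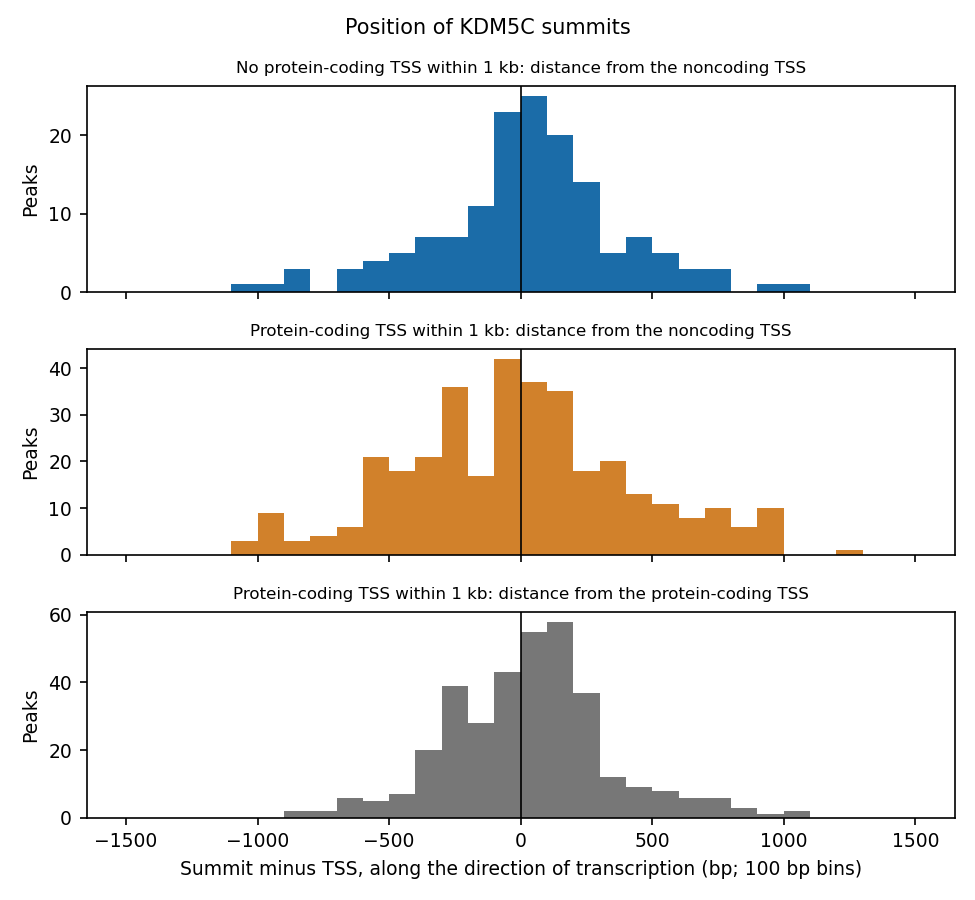
Number of WT peaks (y axis) by the distance of the summit from a TSS along the direction of transcription (x axis, bp, 100 bp bins), with the noncoding TSS in the upper panels, without and with a protein-coding TSS within 1 kb, and the protein-coding TSS in the lowest panel. Summits centred near 51, −10 and 49 bp from the top panel to the lowest.

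Most shared promoters were divergent, among the peaks as among all noncoding genes with a protein-coding TSS within 1 kb. In 216 of the 349 peaks with both TSSs (61.9%, 56.6 to 67.0%) the genes ran away from each other with their starts a median of 194 bp apart. In 127 (36.4%) they lay on opposite strands with overlapping 5′ ends, and in 6 they shared a strand. The make-up was similar over all 1126 noncoding genes with a protein-coding TSS within 1 kb, bound or not. Of these, 666 were divergent, 403 had overlapping 5′ ends and 57 shared a strand. Of the divergent summits, 52 (24.1%) fell between the starts, 101 (46.8%) on the protein-coding side and 63 (29.2%) on the noncoding side. Over genes, divergent noncoding genes were bound at 32.9% (29.3 to 36.6%) and those with overlapping 5′ ends at 28.0% (23.7 to 32.7%). Among CpG-rich promoters the shares were 44.3% (39.6 to 49.1%) and 41.7% (34.6 to 49.1%), and both pairs of intervals overlapped.

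The highest score with a protein-coding TSS was that of 3110083C13Rik and Efha1, which encodes a mitochondrial calcium uptake protein (chr14:58617591-58618723, score 2277, fold enrichment 14.2), the third highest score of the whole WT list. The summit lay at −2 bp from the lincRNA start. High scores also belonged to 4930564K09Rik with Rbm46, a germ cell RNA-binding protein (score 1212), 1700112D23Rik with Eif5a2, a translation factor (1089), and 4930563E22Rik with Med31, a Mediator subunit (1005). Lower scores belonged to Gm17399 with Cmc1 (898), 1700027A07Rik with Pdxp (886), Gm11240 with Rasef (864), Gm15623 with Clns1a (710) and Tug1, a widely expressed long noncoding RNA, with Morc2a (699). All 9 of these peaks were CpG-rich, and in all 9 pairs the genes were divergent. RefSeq now types 4930563E22Rik as protein-coding.

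Without a protein-coding TSS, the highest score belonged to Gm17242 (chr12:81858197-81860409, score 1214, fold enrichment 14.9, rank 31 of the WT list), although its summit lay at −626 bp from the lincRNA start and in an exon of the protein-coding gene Gm1568. Gm17717 (969), C330006A16Rik (844) and Dleu2 (684) followed. Usp35 (669) is typed here as a processed_transcript gene with antisense transcripts, but RefSeq gives that symbol to a protein-coding gene, and the peak cannot be called noncoding with the same confidence. Trmt61b (638) and Zfp783 (581) carry the names of protein-coding genes and are lncRNA entries in RefSeq. The summit at 4930478K11Rik (587) lay in an exon of Hhipl1, and A030009H04Rik (537) and Gm13718 (502) had theirs in noncoding exons. Gm2885 had the same score as Gm13718, 502, and so tied with it for the last place. The 10 peaks named before Gm2885 were CpG-rich, with CpG ratios from 0.674 at Gm13718 to 1.07 at 4930478K11Rik.

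**Figure D5:**
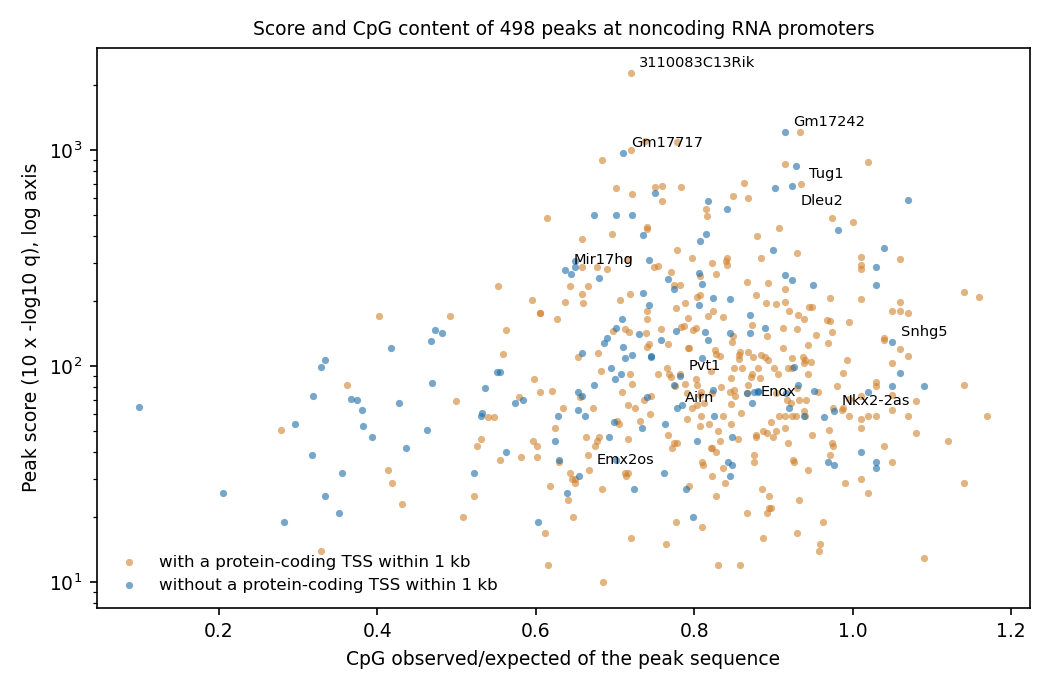
Score of each of the 498 peaks (y axis, 10 times −log10 of q, log axis) against the observed-to-expected CpG ratio of its sequence (x axis), coloured by the presence of a protein-coding TSS within 1 kb, with named genes discussed in the text labelled. The highest score, 2277 at 3110083C13Rik, lay at a ratio of 0.720, and the CpG-poor peaks reached at most 236.

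For peaks standing alone, the nearest protein-coding TSS lay a median of 15941 bp from the midpoint, at 1 to 5 kb for 35 peaks, 5 to 50 kb for 85 and over 50 kb for 29. Median scores were 78, 98 and 68 and CpG-rich shares 74.3% (56.7 to 87.5%), 81.2% (71.2 to 88.8%) and 58.6% (38.9 to 76.5%) in these bands, so the intervals overlapped. Of the 149 summits, 54 lay in a noncoding exon, 42 in a noncoding intron, 25 in a protein-coding exon, 12 in a protein-coding intron and 37 in no gene of either class, and a summit could count under both classes. RefSeq typed the nearest gene as lncRNA for 62 of these peaks, as a transcribed pseudogene for 12 and as protein-coding for 7, and 65 had no match.

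Several genes had more than 1 peak. Of the 482 bound genes, 25 did, and Dleu2, Pisd-ps2 and Gm16869 had 3 each. At Dleu2 the peak of score 684 had its summit at −365 bp from an internal TSS. The peak of score 40 had its summit at 633 bp from another internal TSS, and the peak of score 59 at −362 bp from the outermost start. At Pisd-ps2 the peaks scored 65, 26 and 192 with fold enrichments of 1.95, 1.65 and 3.08, all under the median of 3.90 of peaks without a protein-coding TSS.

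Hand-written lists of long noncoding genes held 165 symbols, of which 44 were found in the annotation as noncoding genes. Of these 12 were bound, including 8 of the 18 with CpG-rich promoters, beside 12.5% of all noncoding genes and 43.2% of all CpG-rich ones. The lists hold few genes each, so their counts are descriptions to be read against those shares. Of the 4 microRNA hosts found, 3 were bound: Dleu2, Mir17hg (279) and A330023F24Rik (99). C130071C03Rik had none. Of the 8 imprinted noncoding genes, 3 were bound. Airn, which runs against and silences Igf2r, had a peak of score 64 with its summit 985 bp downstream of a TSS. Igf2as had a peak of score 59 in an exon of Igf2, a fetal growth factor. Nespas, antisense in the Gnas cluster, had peaks of 136 and 17. H19, Meg3, Mirg, Rian and Nctc1 were not bound. The promoters of these 5 genes and of the bound Airn and Nespas were CpG-poor, and that of Igf2as was CpG-rich.

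Of 10 snoRNA host genes, which carry small nucleolar RNAs in their introns, 1 was bound, Snhg5 (score 129), and 8 had CpG-rich promoters, of which that 1 was bound, beside 43.2% of all CpG-rich noncoding genes. Gas5, Snhg1, Snhg12, Snhg3, Snhg7, Snhg9 and Snord123 were CpG-rich with no peak within 1 kb. The nearest peak midpoint lay 4127 bp from a start of Snhg7 and 213293 bp from one of Gas5. Of 8 nuclear or scaffold RNAs, Tug1 and Pvt1, a neighbour of Myc (score 90, summit at −43 bp), were bound, and Malat1, Neat1, Miat and Rmst were among those not bound. The summit counted for Tug1 lay at −590 bp from its start and nearer to that of Morc2a, at −92 bp. Of 10 noncoding genes beside developmental transcription factors, Emx2os, which runs away from the homeobox gene Emx2 (33), and Nkx2-2as (62), whose summit lay in an exon of Nkx2-2, were bound. The nearest peaks of Sox2ot, Dlx6os1 and Six3os1 were 1138, 2139 and 3404 bp away.

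The X chromosome held 8 of the 498 peaks. Of its 176 noncoding genes 8 were bound (4.55%, 1.98 to 8.76%), compared with 12.9% (11.8 to 14%) of 3669 on the autosomes. Among CpG-rich promoters the shares were 6 of 31 (19.4%, 7.45 to 37.5%) on X and 44.2% (40.6 to 47.7%) on autosomes, and neither pair of intervals overlapped. The highest X scores were those of 4930524L23Rik with Ppp1r3f (291), Gm15246 with Hccs, a haem lyase (220), and 2900002K06Rik with Rbm3, a cold-inducible RNA-binding protein (109). Gm10474, divergent from Fmr1, the fragile X gene, scored 54. Enox and Gm15138 scored 68 each, and Gm5124 and AW822252 35 each. In the X-inactivation centre Enox was the only bound gene of 4. Its peak (chrX:100689031-100689324, fold enrichment 4.44) had its summit 283 bp downstream of the start. Tsix, which is truncated in these cells, and B230206F22Rik, known as Ftx, had no peak within 1 kb, and the peak in Xist (score 113) was left out because its midpoint lay 1536 bp from the TSS. Male cells carry a single X, and the part of its copy number in these shares was not tested. Among autosomes the bound share ran from 7.51% on chromosome 4 to 22.6% on chromosome 9. Chromosomes 2, 4 and 11 held 588, 453 and 483 annotated noncoding genes, compared with at most 209 on any other, and were bound at 9.69, 7.51 and 9.94%.

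Of the 498 peaks 5 overlapped a KO peak, compared with 0.622% of all WT peaks (43 of 6916). They lay at Gm12735 beside Sfi1 (score 584, fold enrichment 2.57), at 1700040D17Rik beside Tdrkh, a piRNA pathway gene (684, 8.81), at Nespas (136, 4.59) and at Gm16869 on chromosome 9, where a pair of peaks scored 109 and 82 with fold enrichments of 2.46 and 2.06 and GC contents of 35.3 and 36.2%. Overlap takes no account of strength, and fold enrichment was not set against the KO list, which was called separately on a single sample.

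At the 1 kb limit, the last peaks inside it were at Gm2301 (midpoint 1000 bp away, score 28), Gm15444 (988 bp, 92) and Gm16049 (988 bp, 70), and the first outside were at Gm17548 (1007 bp, 398), G730013B05Rik (1016 bp, 49) and C030017D09Rik (1022 bp, 133). The 103 peaks with midpoints over 500 bp and up to 1 kb from the noncoding TSS had a median score of 75, and the 88 peaks over 1 kb and up to 2 kb away a median of 74.

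Short motifs were counted on both strands of 300 bp around each summit, as matches of letters and not as binding sites. The E-box CACGTG occurred in 38 of 149 windows without a protein-coding TSS (25.5%, 18.7 to 33.3%), 65 of 349 with one (18.6%, 14.7 to 23.1%), 18.9% (17.8 to 20.1%) at protein-coding TSSs only and 20.6% of all WT peaks, compared with 10.2% (9.64 to 10.8%) of 300 bp windows at CpG-rich gene starts and 5.94% at all gene starts. Peaks with no TSS within 1 kb held the E-box at a similar share to those without a protein-coding TSS, 421 of 1638 (25.7%, 23.6 to 27.9%). The E2F core TCCCGC occurred in 42.3% without and 49.9% with a protein-coding TSS, compared with 46.5% of CpG-rich and 19.5% of all gene starts. The ETS core CCGGAAG occurred in 11.4 and 10.6%, compared with 18.6% of CpG-rich and 7.90% of all gene starts, and the CRE TGACGTCA in 2.01 and 1.43%, compared with 3.50 and 1.55%. Matches to different motifs could overlap. Windows at gene starts were centred on the start and those at peaks on the summit.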

How the data were processed

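KDM5C ChIP and input DNA from WT and KO cells were sequenced. The authors aligned reads to mm9 with Bowtie (version 1.1.2 in the submitters' processing notes, another in the methods), kept unique alignments and called peaks against input with MACS2 2.1.0.20140616, pooling WT replicates. The deposited lists give for each peak a score, a fold enrichment (a ratio to input), the −log10 of its p-value and q-value, and a summit offset. The score equalled 10 times the −log10 of q, decimals dropped, in all 6933 WT rows. The largest WT q-value was 0.0977. Unique mapping can lose or distort peaks in repeated sequence.

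Peak midpoints were matched to the 5′ ends of 95414 transcripts of 37252 GENCODE M1 genes on chromosomes 1 to 19 and X. CpG content was read from NCBIM37. RefSeq types were matched by gene ID, or by symbol where the ID gave no match, to a table on a later assembly, for 1742 of 3845 noncoding genes. Named genes were those of hand-written lists, the 10 highest scores with and without a protein-coding TSS (1 of those with one is not reported here), and every peak on X, overlapping a KO peak or next to the 1 kb limit. The remaining named genes were chosen after their values were seen. Members and lists were chosen with earlier results of these data known. No test was made. Assignment of peaks to TSSs was tested on simulated data. Columns of no mapped sample numbered 0. Python 3.11.15, NumPy 2.4.6, pandas 2.3.3, SciPy 1.17.1, pysam 0.24.0 and matplotlib 3.10.9 were used.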

Additional observations from a re-analysis of the deposited data

Results flagged for a closer look

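Peaks on random and unplaced contigs, which lie outside every comparison above, numbered 17 for WT and 3 for KO. They were singled out because they lie outside the chromosomes analysed and their number was higher for WT. As shares the order was the opposite, 0.245% (95% interval 0.143 to 0.392%) of 6933 WT peaks and 6.38% (1.34 to 17.5%) of 47 KO peaks. The difference was not tested, since each genotype has 1 list.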

How the results depend on the processing

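Of 109 values recomputed under 12 other settings, 80 moved by less than their interval, or for counts by less than 1.5 times, 29 moved further and 0 reversed. With a 500 bp window the bound share was 21.4% for lincRNA, 6.34% for antisense, 4.67% for processed_transcript and 21.8% for protein-coding genes, that of CpG-rich noncoding genes with a protein-coding TSS was 37.6%, and 2 peaks overlapped a KO peak. With 2 kb the shares by type were 28.6, 10.7, 7.70 and 25.1%. The bound share of protein-coding genes was 22% when only the gene's outermost start was used and 23.2% at a q-value of at most 0.01. Keeping WT peaks at or above the median score left 257 peaks, 77 without and 180 with a protein-coding TSS, with bound shares by type of 13.7, 4.40, 3.34 and 13%, of 28.7 and 23.7% for CpG-rich noncoding genes without and with a protein-coding TSS, and CpG-rich peak shares of 84.4 and 95.6%. With a stricter CpG definition (ratio of at least 0.75, GC of at least 55%) the CpG-rich bound shares were 54.7 and 50.1% and the peak shares 45.0 and 68.5%. With 250 bp on either side of the start, 35.7% (29.6 to 42.2%) of CpG-rich noncoding genes without and 41.6% (37.7 to 45.5%) with a protein-coding TSS were bound, in place of 43.3 and 43.2%. Requiring overlap of at least 50% of both peaks left 3 peaks shared with KO. Fewer peaks or a narrower or wider window lower or raise these counts by construction, and for the rest the cause was not tested. Leaving out genes that RefSeq types as protein-coding was added after the data were seen and left 485 peaks, 142 without and 343 with a protein-coding TSS, with none of its values moved past these limits.

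No paired analysis was possible because the files hold only 1 list for WT and 1 for KO, and for the same reason no replicate was left out. Read depth, given by the paper only as a minimum per sample, limits what the absence of a peak shows. Signal under the calling threshold is not in the lists.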
